A study of Mus musculus with 6 samples.

Results

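The genes described here are 8 transcription factors and regulators through which Notch signalling acts inside the cell: the repressor genes Hes1, Hes5 and Hes6, the related Hey1, Hey2 and Heyl, the feedback inhibitor gene Nrarp, and Rbpj, whose product binds DNA for the pathway. They were chosen by name, as the nuclear end of the pathway, and all 8 were found among the 54146 genes counted. The data are RNA sequencing of cells sorted from the cortex of mouse embryos at embryonic day E15.5. In the Mir group (3 libraries) a plasmid at 1 µg/µl expressed a precursor of the microRNA miR-3607-5p from the U6 promoter. In the Scr group (3 libraries) the control plasmid of the same vector kit, also at 1 µg/µl, carried a scrambled hairpin. Both groups also received a GFP plasmid driven by the CAG promoter at 0.7 µg/µl, by electroporation in utero at E14.5, and the GFP-positive cells were sorted 24 hours later. Embryos were wild type, and the labels conflict on the strain (ICR or C57BL/6). Each library pooled the cells of 2 embryos, and the 3 libraries of a group are independent pools. The comparison asks how an excess of miR-3607 changes gene expression in these cells. The rows counted include none for the microRNA, so the excess itself could not be checked here.

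In the developing cortex, Notch receptors on radial glia, the dividing progenitors that line the ventricle, are activated by ligands on neighbouring cells that are starting to become neurons. The cut receptor domain enters the nucleus and joins the RBPJ protein and a Mastermind coactivator. This complex switches on genes such as Hes1, Hes5 and Hey1. HES1 and HES5 then repress proneural genes such as Neurog2 and keep the cell a progenitor, while HES6 counters HES1 and accompanies neuronal commitment. NRARP binds the receptor domain and RBPJ and dampens the signal. HEY2 and HEYL are known mostly from blood vessels, HEYL from the mural cells around them.

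The strand of the hairpin that gives the mature microRNA is shown because its bases 2 to 8, the seed, set which transcripts it can pair with. It was read from the oligonucleotide in the protocol as the 22 bases after the loop, written here as DNA with the seed in capitals.
miR-3607-5p strand of the hairpin: gCATGTGAtgaagcaaatcagt
A match was counted as TCACATG, which pairs with bases 2 to 8. It was also counted as CACATGA, which does not require pairing of base 8 and has an A opposite the first base. No such match was present in any of the 8 genes, in the 5′ UTR, the coding sequence or the 3′ UTR, for the 1 transcript per gene whose coding sequence was longest (GENCODE M21, GRCm38). The 3′ UTRs searched were 368 nt for Hes1, 696 nt for Hes5, 575 nt for Hes6, 1137 nt for Hey1, 1377 nt for Hey2, 3245 nt for Heyl, 1884 nt for Nrarp and 3742 nt for Rbpj. Of 12723 tested genes with a 3′ UTR of at least 8 nt, 17.4% had a match there, with a median UTR length of 1021 nt. The search covers these letters only and says nothing of other pairing.

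The promoter windows of Hes5, Hey2 and Nrarp are shown as the DNA on which the pathway acts, for a Notch target of radial glia, a vascular family member and the gene with the smallest p of the 8. They run from 250 bases before to 50 bases after the annotated start (RefSeq, GRCm38.p6), 5′ to 3′ on the strand of the gene. Capitals mark TGGGAA, the core of the RBPJ recognition sequence, on either strand.
Hes5 (chr4:154960673-154960972, plus strand): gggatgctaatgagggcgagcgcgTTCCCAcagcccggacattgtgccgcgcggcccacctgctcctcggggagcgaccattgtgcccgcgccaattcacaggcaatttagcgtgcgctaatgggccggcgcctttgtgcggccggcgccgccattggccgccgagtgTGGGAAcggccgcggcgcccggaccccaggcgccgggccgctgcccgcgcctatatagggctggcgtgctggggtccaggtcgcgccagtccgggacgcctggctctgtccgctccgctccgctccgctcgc
Hey2 (chr10:30842734-30843033, minus strand): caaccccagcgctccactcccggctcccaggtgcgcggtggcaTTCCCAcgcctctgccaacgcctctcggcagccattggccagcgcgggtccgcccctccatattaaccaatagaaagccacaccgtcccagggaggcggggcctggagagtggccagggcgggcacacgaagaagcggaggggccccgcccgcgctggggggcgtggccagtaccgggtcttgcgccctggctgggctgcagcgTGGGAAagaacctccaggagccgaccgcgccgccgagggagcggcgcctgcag
Nrarp (chr2:25180508-25180807, plus strand): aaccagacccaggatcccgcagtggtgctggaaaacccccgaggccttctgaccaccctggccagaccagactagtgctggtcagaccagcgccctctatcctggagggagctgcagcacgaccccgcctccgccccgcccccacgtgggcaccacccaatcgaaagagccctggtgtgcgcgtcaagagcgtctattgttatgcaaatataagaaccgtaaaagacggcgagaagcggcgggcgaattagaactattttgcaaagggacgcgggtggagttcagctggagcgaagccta
The Hes5 window held the core at positions -226 (as TTCCCA) and -82, counted from 0 at the start site. The Hey2 window held it at -207 (as TTCCCA) and -3, and the Nrarp window did not hold it. RefSeq windows were found for 5 of the 8 genes. Rbpj had a window with the core at -149 and -65 and an overlapping window with it at -205. The sites at -65 and -205 are the same bases, counted from different start sites. Neither window of Hes6 held the core. Hes1, Hey1 and Heyl had no entry. Over 32817 promoter windows of the same length, 25.6% held the core at least once and 3.79% held it 2 or more times. The N box CACNAG, a binding sequence of HES proteins, was present in 42.5% of all windows. It occurred in the Nrarp window, at -179 and -79 on the minus strand, and in one Hes6 window. CACGNG, a site used by HES and HEY proteins, was present in 27.5% of all windows. It occurred in the Nrarp window as CACGTG, which reads the same on both strands, at -108, and in the other Hes6 window at -157.

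The libraries had 12724511 to 16684038 counts in genes. Values per library are given in the order of replicates 1, 2 and 3. Levels are CPM (counts per 1000000 counts in genes, scaled with TMM factors), and fold changes are Mir over Scr from the edgeR quasi-likelihood test over 16897 genes, with standard errors and Benjamini-Hochberg adjusted p-values. Over all genes edgeR had 1 call at its adjusted p threshold of 0.05, the lower Ftl2-ps, which is 0.00592% of the genes, and 0 genes were called higher. At an unadjusted p under 0.05, 6.57% of all genes were higher and 7.93% lower in Mir. The median log2 fold change over all genes was -0.01, and 8253 of the 16897 genes were higher and 8644 lower in Mir. The sum of 10 radial glia markers was 2314 to 2939 CPM in Mir libraries and 1620 to 2319 CPM in Scr libraries. The sum of 10 cortical neuron markers was 4842 to 5311 CPM in Mir libraries and 5546 to 6547 CPM in Scr libraries, so RNA of neurons was present in libraries labelled as cortical progenitors. Scr replicate 2 and Mir replicate 3 had the highest endothelial levels of their groups. Meningeal markers summed to 206 CPM in Mir replicate 2 and to 1.02 to 27.8 CPM in the other libraries, so that this library also stood apart. In bulk RNA, fewer cells of a type and less RNA per cell cannot be told apart.

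All 8 genes passed the filter on low counts, and none of them passed the test between Mir and Scr. At an adjusted p under 0.05, edgeR called 0 of 8, DESeq2 0 of 8 and limma-voom 0 of 8. Over all genes edgeR called 0.00592%, DESeq2 3.28% and limma-voom 0 genes, so 0 of 8 was near the share over all genes with each tool. At an unadjusted p under 0.05 each of the 3 tools had 1 of 8 genes, Nrarp, higher in Mir, where edgeR had 6.57% of all genes higher. The mean was higher in Mir for 6 genes (Hes1, Hes5, Hes6, Hey1, Nrarp and Rbpj) and lower for 2 (Hey2 and Heyl), with a median log2 fold change of 0.12. The Mir and Scr libraries overlapped for all 8 genes, where 20% of the genes tested had no overlap (9.72% higher and 10.3% lower in Mir).

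**Figure D1:**
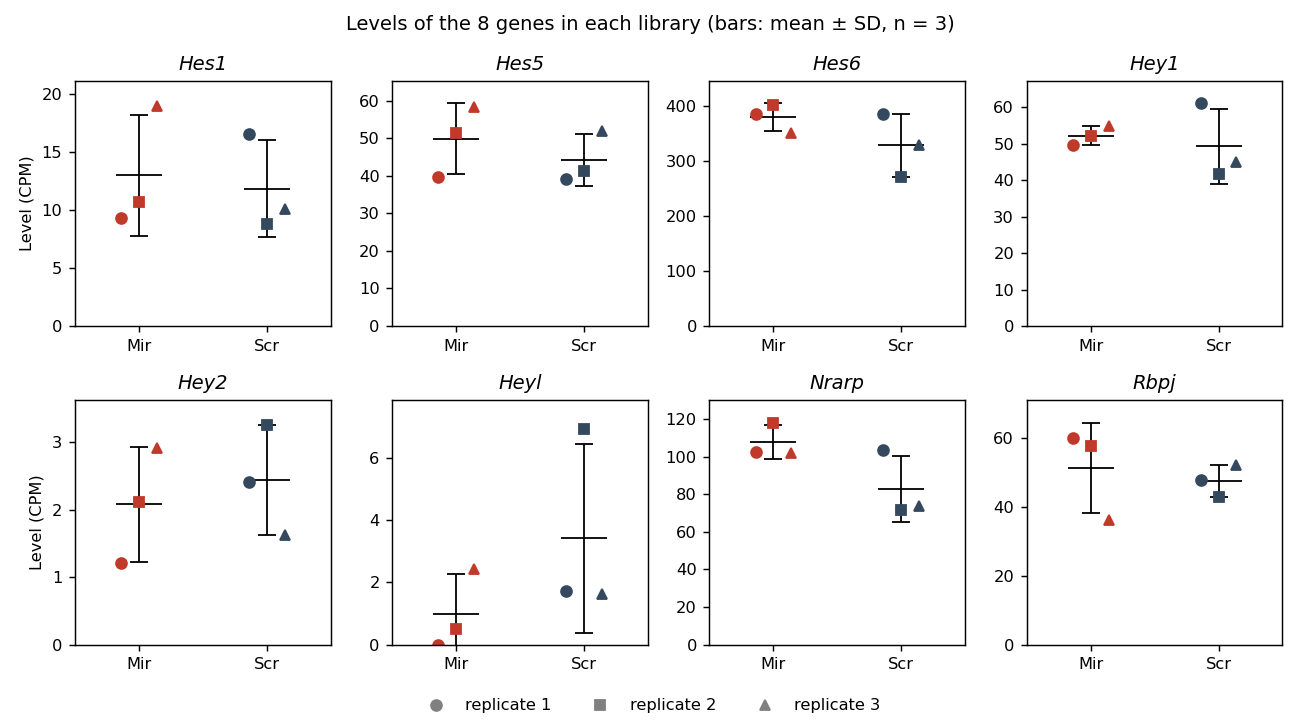
Level (CPM, vertical axes from 0) of each of the 8 genes in the 3 Mir and the 3 Scr libraries, with a symbol shape for each replicate number and the mean ± SD as black bars. The Mir and Scr libraries overlap in all 8 panels, and Nrarp has Mir replicates at 102 to 118 CPM against Scr replicates at 71.7 to 103 CPM.

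Rbpj (ENSMUSG00000039191, chromosome 5, 53466152 to 53657362, plus strand) encodes the DNA-binding partner without which Notch receptors do not switch on their targets. It was at 60.1, 57.7 and 36.1 CPM in the Mir libraries, against 47.8, 42.9 and 52.1 CPM in the Scr libraries. Mir replicates 1 and 2 were above all Scr libraries and Mir replicate 3 was below all of them. The log2 fold change was 0.11 ± 0.20 (95% interval -0.35 to 0.56; edgeR adjusted p = 0.839), and it was -0.02 without Mir replicate 1 and -0.29 with the endothelial level as a covariate. Of the 50-base words of its transcript, 23.3% also occur in the pseudogenes Rbpj-ps1 and Rbpj-ps3, which makes its count uncertain. Rbpj-ps3 was at 7.67 ± 0.724 CPM in Mir and 6.36 ± 1.82 CPM in Scr (SD, n = 3), and with both pseudogenes added to Rbpj the log2 fold change was 0.13.

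Hes1 and Hes5, the repressors that hold radial glia in the progenitor state, did not pass the test, and the libraries of a group differed by more than the group means did. Hes5 (ENSMUSG00000048001, chromosome 4, 154960923 to 154962371, plus strand) was at 39.7, 51.4 and 58.4 CPM in the Mir libraries, against 39.1, 41.2 and 52.0 CPM in the Scr libraries. Replicate 3 was the highest library in each group, and Mir replicate 1 lay between Scr replicates 1 and 2. Its log2 fold change was 0.17 ± 0.17 (95% interval -0.23 to 0.58; edgeR adjusted p = 0.681), and it was 0.03 without Mir replicate 3. The summed level of 10 radial glia markers, cells that express Hes5, was 2314, 2761 and 2939 CPM in the Mir libraries, against 2211, 1620 and 2319 CPM in the Scr libraries, and 9 of the 10 had a higher mean in Mir; the part of these cells in the level of Hes5 was not tested. Of the 1363 nt of Hes5 exons, 433 nt are shared with exons of Gm20421 on the opposite strand, which was at 20.5 ± 5.51 CPM in Mir and 17.4 ± 4.48 CPM in Scr (SD, n = 3); the kit does not mark strand, so the reads of this stretch cannot be assigned.

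Hes1 (ENSMUSG00000022528, chromosome 16, 30064384 to 30067796, plus strand), which also represses its own promoter and cycles in level within a cell, was at 9.35, 10.7 and 19.0 CPM in the Mir libraries. It was at 16.6, 8.83 and 10.1 CPM in the Scr libraries. One library in each group, Mir replicate 3 and Scr replicate 1, stood above the remaining 4. For Hes1 the log2 fold change was 0.14 ± 0.34 (95% interval -0.66 to 0.93; edgeR adjusted p = 0.891). It was -0.26 without Mir replicate 3, -0.04 without Scr replicate 2 and 0.46 without Scr replicate 1, so the direction of the mean rested on single libraries.

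Hes6 (ENSMUSG00000067071, chromosome 1, 91411483 to 91414038, minus strand), the family member of committed cells, was at 386, 403 and 352 CPM in the Mir libraries, against 386, 272 and 329 CPM in the Scr libraries. Scr replicate 1 was at the level of Mir replicate 1, and Scr replicate 2 was the lowest library. The difference on the log2 scale was 0.21 ± 0.13 (95% interval -0.10 to 0.52; edgeR adjusted p = 0.505). It was 0.09 without Scr replicate 2, 0.34 without Scr replicate 1 and 0.07 with the endothelial level as a covariate. The summed level of 8 intermediate progenitor markers (Eomes, Neurog2, Insm1 and others; the basal progenitors that radial glia produce) was 3566, 4079 and 2723 CPM in the Mir libraries, against 3013, 1881 and 2559 CPM in the Scr libraries. All 8 of these markers had a higher mean in Mir, 3 of them with an unadjusted p under 0.05, where 6.57% of all genes were higher. Mir replicate 2 was highest and Scr replicate 2 lowest both for these markers and for Hes6; the part of these cells in the level of Hes6 was not tested.

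Nrarp (ENSMUSG00000078202, chromosome 2, 25180758 to 25183339, plus strand) was the gene of the 8 with the smallest p. It was at 103, 118 and 102 CPM in the Mir libraries, against 103, 71.7 and 73.5 CPM in the Scr libraries. The 3 Mir libraries stood above Scr replicates 2 and 3, while Scr replicate 1 reached the level of Mir replicates 1 and 3. The mean was 108 ± 9.10 CPM in Mir and 82.9 ± 17.8 CPM in Scr (SD, n = 3), a log2 fold change of 0.38 ± 0.15 (95% interval 0.02 to 0.74). The unadjusted p was 0.0414 and the edgeR adjusted p 0.326 (0.219 with DESeq2, 0.290 with limma-voom). Leaving out 1 library at a time gave 0.28 to 0.57, the highest without Scr replicate 1, with an edgeR adjusted p of 0.219 at the lowest. Notch1, the receptor whose signal NRARP dampens, was at 75.2, 72.4 and 95.4 CPM in Mir and 67.2, 50.0 and 71.2 CPM in the Scr libraries. The groups did not overlap, with a log2 fold change of 0.37 ± 0.16 (edgeR adjusted p = 0.358). For Notch1, leaving out 1 library at a time gave 0.22 (without Mir replicate 3) to 0.47 (without Scr replicate 3). Without Scr replicate 2 and Mir replicate 3 together it was 0.09 (edgeR adjusted p = 0.687). The groups overlapped for Notch2 (0.34 ± 0.30), Notch3 (0.07 ± 0.48) and Notch4 (-0.31 ± 0.23).

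The counts of Nrarp share their place with another annotated gene. Of its 2582 nt of exon, 2051 nt lie within exons of Gm38287, annotated on the opposite strand. Gm38287 was at 90.8, 104 and 85.2 CPM in the Mir libraries, against 88.4, 65.2 and 66.4 CPM in the Scr libraries. Its libraries ranked almost as those of Nrarp did, with a Pearson correlation of 0.992 over the 6 libraries. Since the library kit does not mark strand, transcripts of Nrarp and of Gm38287 cannot be told apart in these counts. With the counts of both genes summed, the log2 fold change was 0.36 (unadjusted p = 0.0405, edgeR adjusted p = 0.324).

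Hey1 (ENSMUSG00000040289, chromosome 3, 8663359 to 8667256, minus strand), a Notch-responsive repressor of neural progenitors and of vessels, differed least between the groups on the log2 scale. It was at 49.7, 52.1 and 54.9 CPM in the Mir libraries, against 61.2, 41.7 and 45.0 CPM in the Scr libraries. The Mir libraries lay close together and inside the range of the Scr libraries. The log2 fold change was 0.08 ± 0.15 (95% interval -0.27 to 0.44; edgeR adjusted p = 0.837), and it was -0.02 without Scr replicate 2 and 0.27 without Scr replicate 1.

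Hey2 and Heyl had the fewest reads of the 8 genes. Hey2 (ENSMUSG00000019789, chromosome 10, 30832359 to 30842801, minus strand) had 19, 33 and 43 reads in the Mir libraries, against 31, 45 and 27 reads in the Scr libraries. Its levels were 1.21, 2.11 and 2.92 CPM in Mir and 2.42, 3.26 and 1.63 CPM in Scr, and the groups overlapped. The log2 fold change was -0.22 ± 0.43 (95% interval -1.22 to 0.77; edgeR adjusted p = 0.844), and it was 0.04 without Scr replicate 2 and 0.06 without Mir replicate 1.

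Heyl (ENSMUSG00000032744, chromosome 4, 123233556 to 123249875, plus strand) had 0, 8 and 36 reads in the Mir libraries, against 22, 96 and 27 reads in the Scr libraries. The levels were 0, 0.511 and 2.44 CPM in Mir and 1.71, 6.95 and 1.63 CPM in Scr. For Mir replicate 1 a count of 0 allows up to 3 reads, or 0.191 CPM, counting error only. Mir replicates 1 and 2 were below all Scr libraries, Mir replicate 3 was above Scr replicates 1 and 3, and the top value was that of Scr replicate 2. The log2 fold change was -1.80 ± 1.12 (95% interval -4.41 to 0.80; edgeR adjusted p = 0.497), and it was -0.77 without Scr replicate 2 and -3.71 without Mir replicate 3 (edgeR adjusted p = 0.849 and 0.190). Without both it was -2.67 (edgeR adjusted p = 0.226).

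Markers of the vessel wall also differed between libraries and were lower in Mir on the mean. Mural cell markers (Pdgfrb, Rgs5, Kcnj8, Abcc9 and 5 others) summed to 3.75, 29.2 and 33.9 CPM in the Mir libraries, against 71.3, 135 and 25.8 CPM in the Scr libraries. Vtn alone gave 23.9 CPM of the sum in Mir replicate 2. Without Vtn the mural sums were 3.69, 5.30 and 24.2 CPM in the Mir libraries, against 48.8, 90.1 and 19.3 CPM in the Scr libraries. All 6 of these markers that could be tested had a lower mean in Mir, with Kcnj8 and Rgs5 at 0 in Mir replicate 1 and Abcc9 at 0 in Mir replicates 1 and 2. Endothelial markers (Pecam1, Cdh5, Kdr, Cldn5 and 6 others) summed to 4.90, 4.66 and 43.7 CPM in Mir and 99.3, 235 and 16.5 CPM in Scr. All 10 had a lower mean in Mir, and Pecam1, Cdh5, Cldn5, Tie1 and Emcn were at 0 in Mir replicates 1 and 2. Scr replicate 2 had the top value and Mir replicate 1 the lowest both for Heyl and for the mural markers, with or without Vtn. The libraries between them did not keep the same order. Scr replicate 1 had higher mural and endothelial sums than Mir replicate 3, but Heyl at 1.71 against 2.44 CPM. The lowest endothelial sum was that of Mir replicate 2. With the endothelial level as a covariate, the log2 fold change of Heyl was -0.29 (edgeR adjusted p = 0.966), that of Hey2 0.47 and that of Nrarp 0.36. The endothelial level was itself lower in Mir on the mean, so this fit cannot cleanly separate it from the group. The part of vessel cells in the level of Heyl was not tested. Markers of microglia, of inhibitory neurons and of red blood cells were also lower in Mir on the mean, in 8 of 8, 9 of 9 and 4 of 5 tested genes. Of these, 2 microglia and 7 inhibitory neuron markers had an unadjusted p under 0.05, as had 3 endothelial and 2 mural markers, where 7.93% of all genes were lower. Microglia markers summed to 10.1 to 51.4 CPM in the Mir libraries and 21.3 to 76.0 CPM in the Scr libraries, and inhibitory neuron markers to 179 to 411 CPM in the Mir libraries and 318 to 1136 CPM in the Scr libraries. Red blood cell markers summed to 1.60 to 536 CPM in the Mir libraries and 205 to 801 CPM in the Scr libraries. Meningeal markers summed to 1.02, 206 and 9.64 CPM in the Mir libraries and 16.0, 27.8 and 10.5 CPM in the Scr libraries. Without Mir replicate 2 the log2 fold change of Heyl was -1.46 (edgeR adjusted p = 0.772).

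**Figure D2:**
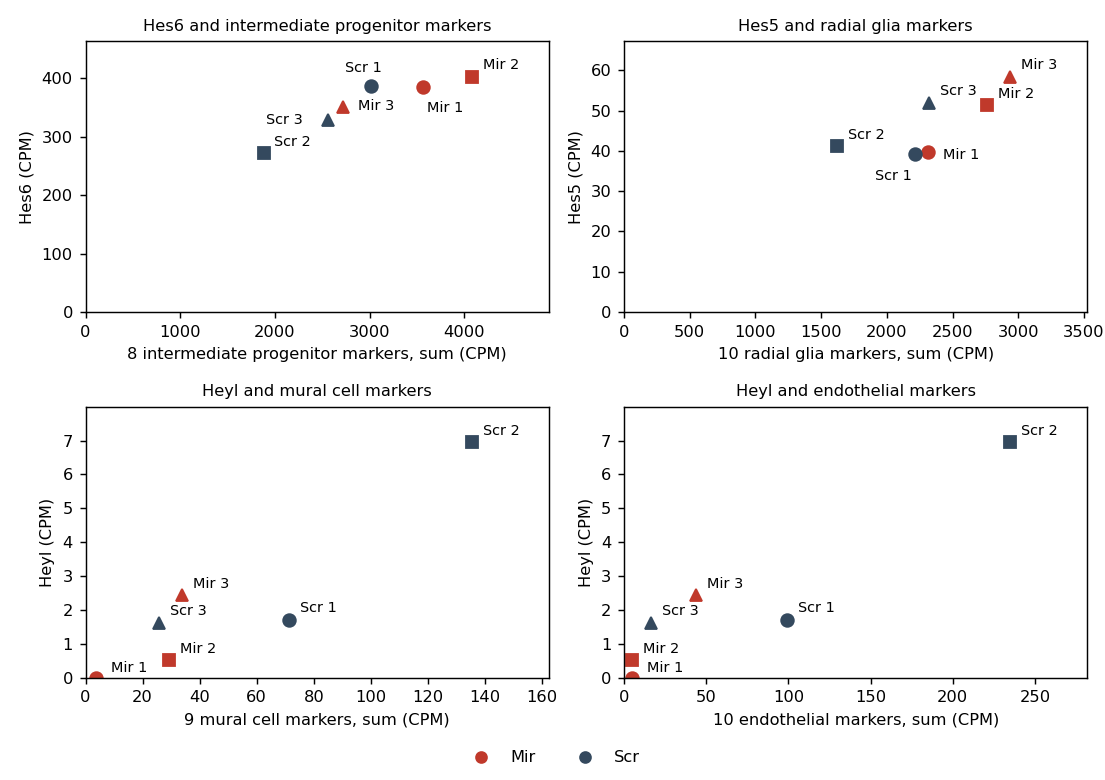
Level of Hes6, Hes5 and Heyl in each library (CPM, vertical axes) against the summed level of marker genes in the same library (CPM, horizontal axes), Mir libraries in red and Scr libraries in dark blue. Hes6 is lowest where intermediate progenitor markers are lowest (Scr replicate 2). Heyl is at 6.95 CPM in the library with the highest mural and endothelial sums, Scr replicate 2, and at 0 in Mir replicate 1. Scr replicate 1 has higher mural and endothelial sums than Mir replicate 3 but a lower Heyl level.

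**Figure D3:**
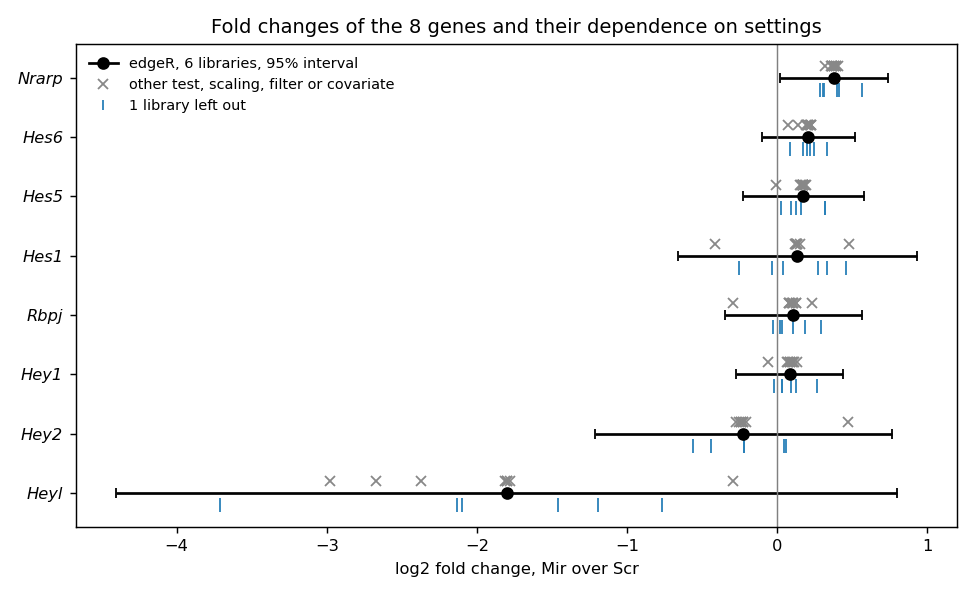
Log2 fold change (Mir over Scr, horizontal axis) of each of the 8 genes, with the edgeR value and its 95% interval in black, values under other tests, scalings, filters or covariates as grey crosses, and values with 1 library left out as blue ticks. The interval of Nrarp runs from 0.02 to 0.74, the intervals of the remaining 7 genes include 0, and that of Heyl is the widest, from -4.41 to 0.80.

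Per kb of exon, Hes6 had the highest level of the 8 genes, at 210.2 ± 14.4 CPM per kb in Mir and 182 ± 31.6 CPM per kb in Scr (SD, n = 3). Nrarp followed at 41.7 ± 3.52 in Mir and 32.1 ± 6.89 in Scr, and Hes5 at 36.6 ± 6.94 in Mir and 32.4 ± 5.06 in Scr, all in CPM per kb. Nrarp was above Hes5 in 3 of 6 libraries, so this pair could not be ordered. Hey1 was at 16.0 ± 0.801 in Mir and 15.1 ± 3.19 in Scr, Hes1 at 6.38 ± 2.57 in Mir and 5.82 ± 2.04 in Scr, and Rbpj at 4.02 ± 1.04 in Mir and 3.73 ± 0.364 in Scr, in CPM per kb. Hes1 was above Rbpj in 5 of 6 libraries with overlapping ranges, and their order turned when the longest transcript replaced the union of all exons, which for Rbpj is 12750 nt long, against 5485 nt for its longest transcript. Hey2, at 0.452 ± 0.186 in Mir and 0.530 ± 0.178 CPM per kb in Scr, and Heyl, at 0.193 ± 0.252 in Mir and 0.671 ± 0.596 CPM per kb in Scr, were the lowest, and their ranges overlapped. The steps between Hes6 and Nrarp, Hes5 and Hey1, Hey1 and Hes1, and Rbpj and Hey2 were present in 6 of 6 libraries, with ranges apart. These lengths include exon shared with genes on the opposite strand, 2051 of 2582 nt for Nrarp and 433 of 1363 nt for Hes5. How reads of the shared stretches were counted is not given. The levels per kb of Nrarp and Hes5, and the steps next to them, are therefore uncertain.

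**Figure D4:**
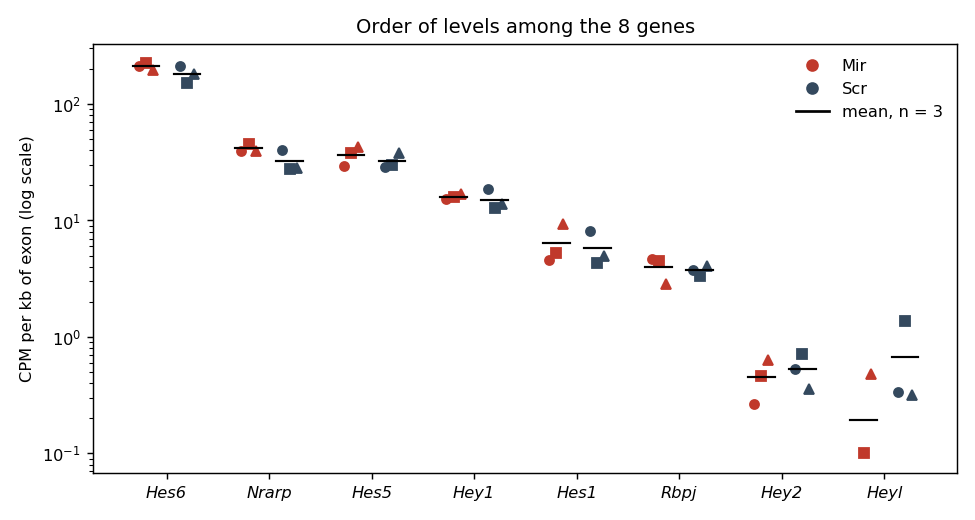
Level per kb of exon (CPM per kb, log scale) of the 8 genes in order of their mean, with 1 symbol per library (circle, square and triangle for replicates 1, 2 and 3), Mir left of Scr, and black lines for the mean of 3. Hes6 stands highest and Hey2 and Heyl lowest in both groups. The value of 0 for Heyl in Mir replicate 1 has no place on a log axis and is not drawn. The places of Nrarp and Hes5 are uncertain, since their lengths include exon shared with genes on the opposite strand.

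For the 6 of the 8 genes with a mean of at least 10 CPM, so not for Hey2 and Heyl, the genes whose levels followed theirs most closely over the 6 libraries were searched among 10424 genes with such a mean. With only 6 libraries, which share their processing and differ in composition, these Pearson correlations are the most extreme of many and are given as a description. For Hes1 they were Skida1, Psph and Gm7901 (0.989 to 0.991), and for Hes6 Ddx50, Ikzf5 and Mgat1 (0.992 to 0.994). For Hey1 they were 9130023H24Rik, 1700018L02Rik and Ctso (0.978 to 0.986), and for Rbpj Pcm1, Rdh14 and Ccar1 (0.992 to 0.996). For Hes5 they were Mettl13, Bst2 and the overlapping Gm20421 (0.979 to 0.985), and for Nrarp Slc27a1, Supv3l1 and the overlapping Gm38287 (0.992 to 0.993). Among the 8 genes themselves, Hes6 and Nrarp varied together (0.900), and Hey1 varied with Hes1 (0.809), Nrarp (0.787) and Hes6 (0.773). Hey2 and Heyl also varied together (0.859). Hes6 and Heyl (-0.821), Hey2 and Rbpj (-0.821) and Heyl and Rbpj (-0.777) varied in opposite directions, and the value for Hes1 and Hes5 was 0.348. Pairs with Hey2 or Heyl rest on low counts, 19 to 45 reads per library for Hey2 and 0 to 96 for Heyl.

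The rest of the Notch pathway was described from lists by role, 72 further genes of which 67 could be tested. None was called by edgeR. At an unadjusted p under 0.05 there were 7 higher and 7 lower of 67, against 6.57% of all genes higher and 7.93% lower. The mean was higher in Mir for 39 and lower for 28, against 8253 higher and 8644 lower over all genes. Their median log2 fold change was 0.04, against -0.01 over all genes. DESeq2 called 1 higher (Dll1) and 3 lower (Aph1b, Helt and Cdkn1c) at its adjusted p under 0.05, where it called 3.28% of all genes.

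Among the receptors and ligands, Dll1, the main Notch ligand of committing cortical cells, was at 95.8, 94.8 and 84.1 CPM in the Mir libraries, against 63.6, 67.7 and 63.9 CPM in the Scr libraries. All Mir libraries were above all Scr libraries, with a log2 fold change of 0.49 ± 0.09 (edgeR adjusted p = 0.171, DESeq2 adjusted p = 0.00153). The means of all 8 intermediate progenitor markers were higher in Mir as well (median 0.45 on the log2 scale); the part of these cells in the level of Dll1 was not tested. Dll3, the ligand gene with the highest mean over the 6 libraries, was at 80.7 ± 7.71 CPM in Mir and 79.3 ± 14.46 CPM in Scr (SD, n = 3), with a log2 fold change of 0.03 ± 0.15 (edgeR adjusted p = 0.955). Dll4, a ligand used mainly in vessels, was at 2.19 ± 0.321 CPM in Mir and 5.40 ± 4.12 CPM in Scr (SD, n = 3), with a log2 fold change of -1.30 ± 0.52 (edgeR adjusted p = 0.320). Scr replicate 2, with the highest endothelial sum, was also highest for Dll4, at 10.1 CPM, and without it the log2 fold change was -0.47 (unadjusted p = 0.199, edgeR adjusted p = 0.629); the part of vessel cells in this level was not tested. The 5 genes that add sugars to the receptors (Lfng, Mfng, Rfng, Pofut1 and Poglut1) all had a higher mean in Mir, by 0.12 to 0.32 on the log2 scale, with no unadjusted p under 0.05 and overlapping libraries for all but Pofut1. Poglut1, the glucosyltransferase of the receptors, was at 148 CPM in Mir and 137 CPM in Scr on the mean.

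Of the 8 genes for receptor cleavage, Aph1b, a subunit of the γ-secretase that releases the receptor domain, was at 28.7, 28.9 and 27.3 CPM in the Mir libraries, against 37.4, 48.9 and 37.2 CPM in the Scr libraries. The groups did not overlap, with a log2 fold change of -0.54 ± 0.14 (edgeR adjusted p = 0.214, DESeq2 adjusted p = 0.0359). The mouse has a closely similar copy, Aph1c, which makes the counts of Aph1b uncertain. Adam10, the protease that makes the first cut, was at -0.36 ± 0.12 on the log2 scale (edgeR adjusted p = 0.272), while Ncstn, another γ-secretase subunit, was at 0.14 ± 0.10 (edgeR adjusted p = 0.583). Of 11 genes of trafficking and turnover, the Deltex gene Dtx2 (0.42 ± 0.14) and the ligase gene Mib2 (0.29 ± 0.10) were higher and the ligase gene Neurl1a (-1.16 ± 0.40) lower at an unadjusted p under 0.05, with edgeR adjusted p-values of 0.265, 0.282 and 0.276. Levels of Neurl1a were low, at 1.48 CPM in Mir and 3.33 CPM in Scr on the mean, and highest in Scr replicate 2. Without that library its log2 fold change was -0.79 (edgeR unadjusted p = 0.0877, adjusted p = 0.485). Dtx3 was at 0.21 ± 0.14 on the log2 scale (edgeR adjusted p = 0.531).

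The partners of RBPJ in the nucleus gave no call either. Of 6 coactivator genes (Maml1, Maml2, Maml3, Snw1, Ep300 and Kat2b), 2 had higher and 4 lower means, with none at an unadjusted p under 0.05, and Snw1 was at 337 CPM in Mir and 336 CPM in Scr on the mean. Of 7 corepressor genes, Hdac1 was at 0.29 ± 0.11 and L3mbtl3 at -0.41 ± 0.17 on the log2 scale (edgeR adjusted p = 0.290 and 0.332), and Ctbp1 at 0.23 ± 0.12 (edgeR adjusted p = 0.424). Of the 5 Groucho/Tle genes, whose products HES proteins recruit to repress, Tle3 was at 0.35 ± 0.11 (edgeR adjusted p = 0.253) and Tle5 at 0.06 ± 0.10 (edgeR adjusted p = 0.834). Hes2 and Hes3 had no counts in any library, and Hes7 was at 0 to 0.662 CPM. Helt, a Hes-related factor of inhibitory neurons in the mouse midbrain, was at 2.35, 2.36 and 2.44 CPM in the Mir libraries, against 5.53, 10.1 and 3.85 CPM in the Scr libraries, with no overlap and a log2 fold change of -1.44 ± 0.38 (edgeR adjusted p = 0.214, DESeq2 adjusted p = 0.0366). Scr replicate 2 was highest for Helt and, at 1136 CPM, for the inhibitory neuron markers, whose part in the level of Helt was not tested. Without Scr replicate 2 the log2 fold change of Helt was -0.97 (edgeR adjusted p = 0.302). Bhlhe40, a related repressor, was at 0.02 ± 0.38 (edgeR adjusted p = 0.988).

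Genes that HES proteins repress gave values on both sides of 0, and none was called by edgeR. Neurog2, the proneural factor of cortical excitatory neurons, was at 627, 761 and 512 CPM in the Mir libraries, against 555, 333 and 395 CPM in the Scr libraries. Its Mir replicate 3 lay below Scr replicate 1, and the log2 fold change was 0.57 ± 0.21 (edgeR adjusted p = 0.295). Neurog1 was at 0.59 ± 0.23 on the log2 scale with no overlap (edgeR adjusted p = 0.307). Cdkn1c, a cell cycle inhibitor, was at 87.6, 123 and 96.4 CPM in the Mir libraries, against 138, 188 and 158 CPM in the Scr libraries, with no overlap and a log2 fold change of -0.65 ± 0.16 (edgeR adjusted p = 0.212, DESeq2 adjusted p = 0.0108). Of 9 tested genes of this list, which also holds Dll1, 5 had higher and 4 lower means. Neurog2 and Mfng are also among the intermediate progenitor markers, and Fabp7, Nes and Slc1a3 among the radial glia markers. Of the 8 other Notch-responsive genes, 5 had higher means, and Fabp7, an RBPJ target of radial glia, was at 1049.9 ± 231 CPM in Mir and 816 ± 202 CPM in Scr (SD, n = 3; edgeR adjusted p = 0.474).

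**Figure D5:**
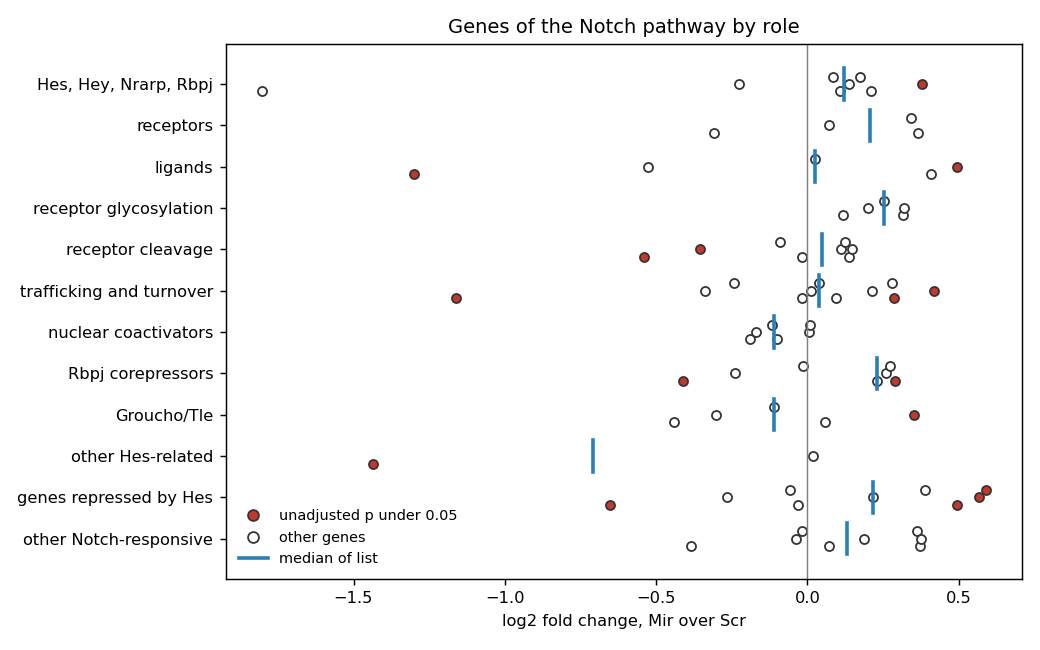
Log2 fold change (Mir over Scr, horizontal axis) of each tested gene of the Notch pathway by role, with filled symbols for an unadjusted p under 0.05 and blue lines for the median of each list. Most genes lie between -0.6 and 0.6, filled symbols stand on both sides of 0, and none passed the adjusted threshold with edgeR.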

How the data were processed

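The deposited files hold raw read counts per gene for 3 Mir and 3 Scr libraries, without normalization by the authors. The submitters' processing notes list DESeq2 1.18.1, HISAT2 2.1.0 and HTSeq 0.11.0, with mm10 (GRCm38) as the build. Not given in the sources used here were the annotation, the strand setting and how multiply aligned reads were treated. From 21.9 to 23.6% of the listed reads were assigned to genes. The 5 summary lines, which name no gene, were left out, with 28.8 to 31.6% of reads in no feature, 39.3 to 44.4% not unique, 4.48 to 5.48% not aligned and up to 0.377% ambiguous. Per the labels, the libraries of a group are independent pools of embryos and were counted as replicates; no pair of a group agreed within sampling noise (chi-square per degree of freedom 8.23 to 28.2).

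The counts were tested in R 4.3.3 with the two-sided quasi-likelihood F test of edgeR 4.0.16, with group as the only term, TMM factors and the filterByExpr filter, which left 16897 genes. Adjusted p-values are Benjamini-Hochberg values over all genes tested, and calls use 0.05. The common biological coefficient of variation was 23.6%. Intervals of fold changes are at 95%, and the ± of a fold change is its standard error. The edgeR steps alone, in a separate run, were tried on simulated counts with a lower biological spread than these data. DESeq2 1.42.0 (2302 genes without an adjusted p stayed uncalled) and limma-voom (limma 3.58.1) were alternatives, with other normalizations and filters, libraries left out, a replicate block, an endothelial covariate and 3 summed counts chosen after seeing the data. Correlations used log2 (CPM + 0.5). Symbols came from GENCODE M21 for 54079 of 54146 genes.

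The 8 genes, the lists and the markers were chosen with earlier results of these data known. Named are the 8 genes and, in each list of the pathway, the genes with an unadjusted p under 0.05 and the gene with the highest level, and the 3 genes most like each of the 8 that had a mean of at least 10 CPM. Further genes are named where they help to describe a list. Reads were amplified and carried no molecular identifiers, so the limit given for a count of 0 covers counting error only.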

Additional observations from a re-analysis of the deposited data

How the results depend on the processing

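None of the alternatives brought any of the 8 genes past the adjusted threshold, and the lowest adjusted p was 0.190 (Heyl without Mir replicate 3, edgeR). Leaving out 1 library at a time gave log2 fold changes of -0.26 to 0.46 for Hes1, 0.03 to 0.32 for Hes5, 0.09 to 0.34 for Hes6, -0.02 to 0.27 for Hey1, -0.56 to 0.059 for Hey2, -3.71 to -0.77 for Heyl, 0.28 to 0.57 for Nrarp and -0.0245 to 0.29 for Rbpj. The sign turned for Hes1 without Scr replicate 2 (-0.04) and without Mir replicate 3 (-0.26), for Hey1 without Scr replicate 2 (-0.02), for Hey2 without Scr replicate 2 (0.04) and without Mir replicate 1 (0.059), and for Rbpj without Mir replicate 1 (-0.0245). Without Scr replicate 2 and Mir replicate 3 together it turned for Hes1 (-0.41), Hes5 (-0.0049) and Hey1 (-0.059), and with the endothelial covariate for Hey2 (0.47) and Rbpj (-0.29); the cause was not tested. The unadjusted p of Nrarp ran from 0.00157 (without Scr replicate 1) to 0.132 (without Scr replicate 3) with 1 library left out. Over all genes, edgeR called 0 higher and 0 to 2 lower with 1 library left out, 15 higher and 16 lower with no filter on low counts, and 10 higher and 19 lower without Scr replicate 2 and Mir replicate 3. DESeq2 called 233 higher and 322 lower over all genes, and 1 higher and 3 lower among the other Notch pathway genes. The count of lower genes was 0 with limma-voom (0 higher), with the replicate block and with the endothelial covariate. With the replicate number as a replicate block, Nrarp had a log2 fold change of 0.40 (edgeR adjusted p = 0.351), Heyl -2.37 (0.449) and Hes6 0.22 (0.478), and no call of the 8 genes changed. Labels do not say that a number marks shared embryos, and deviations of same-numbered libraries correlated at 0.248, -0.147 and -0.087. With 3 libraries per group that differ in composition, these values cannot decide whether the numbers pair the samples. By the longest transcript in place of all exons, levels were 225 CPM per kb for Hes6, 21.0 for Hey1, 8.47 for Hes1, 9.02 for Rbpj and 0.885 for Hey2, since the transcript is shorter than the union of exons. At a filter of at least 50 counts in 3 libraries Heyl and Hey2 gave no value. Hey2 and Heyl had at most 45 and 96 reads in a library, and no effect of depth on their results was tested.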
